A study of Saccharomyces cerevisiae with 11 samples.

Results

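Leader lengths were examined for 10 genes of phosphate regulation in budding yeast, PHO81, PHO84, PHO5, PHO4, PHO85, PHO80, PHO2, PHO86, PHO87 and PHO88, chosen by name; 9 of them are among the 4551 open reading frames (ORFs) with a call in the series. They were proposed with leader lengths of these libraries known, so the lengths are described and not tested. The leader is the stretch of mRNA between the capped 5′ end and the start codon, and the files give 1 length in nucleotides (nt) per gene and library, with no read counts. TL-seq, which sequences capped ends, was made as 2 libraries of the reference strain S288C, described as biological replicates. One library of Sigma 1278b, a strain that can grow filamentously, was made with tobacco acid pyrophosphatase, the enzyme that opens the cap for ligation, and a mock-treated Sigma library without the enzyme was the control. TATL-seq is the same approach on polysome gradient fractions, here 7 fractions of BY4742, an S288C derivative, with 1 library each. The growth notes give Sigma as MAT a with ura3, leu2, trp1 and his3, and BY4742 as Mat α with his3∆1, leu2∆0, lys2∆0 and ura3∆0, with no separate genotype for the S288C TL-seq libraries. All cultures grew at 30°C to mid-log phase in YPAD, a rich medium with 2% glucose and 2% peptone. No culture was labelled as starved of phosphate.

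The PHO pathway adjusts phosphate uptake to supply. In phosphate-rich cells the cyclin-dependent kinase Pho85 with its cyclin Pho80 phosphorylates the transcription factor Pho4, which then leaves the nucleus. When phosphate is scarce the inhibitor Pho81 blocks the kinase, and Pho4 together with the homeodomain factor Pho2 turns on genes such as PHO5, for a secreted acid phosphatase, and PHO84, for the high-affinity phosphate transporter.

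Of the 10 genes, 9 had a call in at least 1 library, beside 75.6% of the 6021 protein-coding genes of the RefSeq table. PHO85 was called in all 11 libraries, PHO4 and PHO88 in 10, PHO84 in 7, PHO2 in 6, PHO80 and PHO86 in 5, PHO5 in 4 and PHO81 in 2. PHO87, for a low-affinity phosphate transporter, had no call in any library, so no length can be given for it. Per library, 7 of the 10 were called in each S288C replicate (59.1% and 57.1% of protein-coding genes), 4 in Sigma with pyrophosphatase (31.3%), 1 in the control (3.39%) and between 5 and 7 in each fraction (34.5% to 41.2%). A missing call does not show that an mRNA was absent, because no source used here gives the read minimum behind a call. Both S288C TL-seq libraries ran on a HiSeq instrument and the other 9 on a Genome Analyzer II, so strain, method and sequencer cannot be told apart in comparisons with S288C TL-seq.

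**Figure D1:**
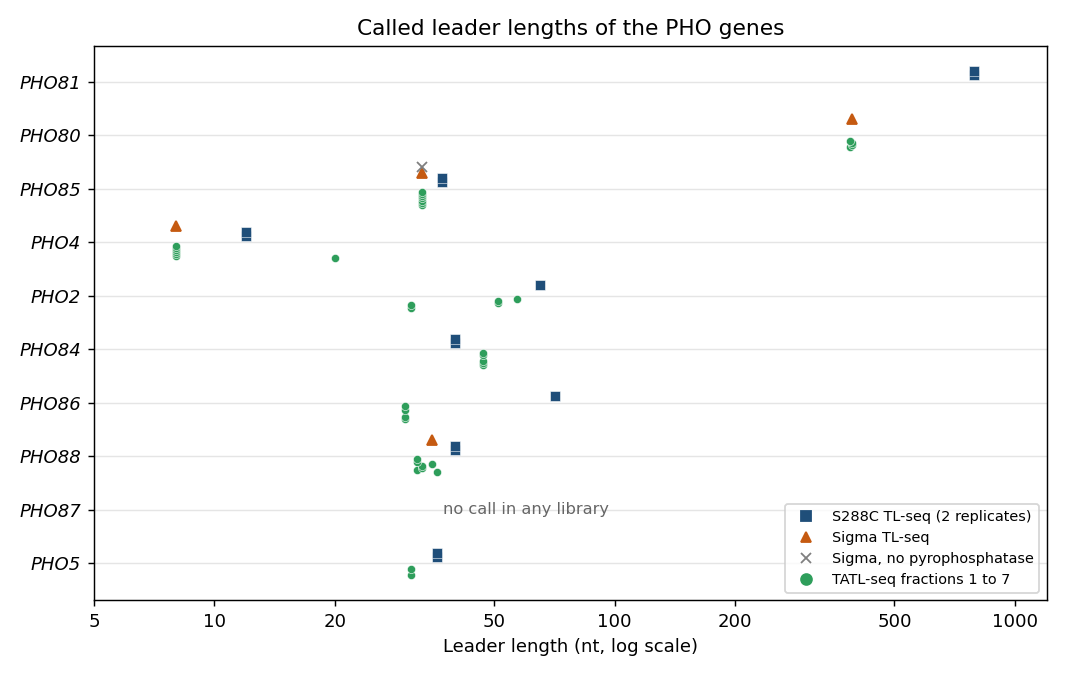
Leader length in nt on a log scale for each PHO gene, 1 point per library with a call. Squares are the S288C TL-seq replicates, triangles Sigma TL-seq, the cross the Sigma control and circles the TATL-seq fractions, spread vertically so that equal values stay visible. PHO81 at 793 nt and PHO80 at 388 to 392 nt stand far to the right of the other 7 called genes, which lie between 8 and 71 nt.

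The regulators held both the longest and the shortest leaders of the group. PHO81 (YGR233C), for the kinase inhibitor, had 793 nt in both S288C replicates (793 nt ± 0, SD, n = 2) and no call in Sigma, the control or any fraction. That length ranked 7th among the 3144 ORFs called in both replicates, and 99.8% of them were shorter. The ORFs nearest to it in length, with replicates within 10 nt of each other, were ICS2 (830 nt) and BMH2 (893 nt) above and AAD4 (723 nt) and VEL1 (668 nt) below. Each of these 4 was also called in TATL-seq, with medians of 817, 885, 698 and 671 nt, whereas PHO81 rested on the S288C TL-seq libraries alone. ICS2 and BMH2 had calls in only 3 libraries each, both S288C replicates among them, so their TATL-seq values come from a single fraction. Of 476 ORFs with leaders of 100 nt or more in S288C, 19.3% likewise had no call elsewhere.

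PHO80 (YOL001W), for the cyclin, showed the opposite pattern of calls. It had no call in either S288C TL-seq replicate, 392 nt in Sigma with pyrophosphatase, and 388, 392, 392 and 388 nt in fractions 3, 4, 5 and 6. The 5 calls took only 2 values, 4 nt apart, and came from both strains. Its TATL-seq median of 390 nt was long for these libraries, since 1.87% of 3635 ORFs reached that length, and 392 nt or more was reached by 0.85% of 1883 ORFs in Sigma. Among 1789 ORFs called in Sigma and in a fraction, 9.78% had no call in either S288C replicate.

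PHO85 (YPL031C), for the kinase that Pho80 and Pho81 control, had a leader that took only 2 lengths. PHO84, PHO5, PHO80 and PHO86 also took 2 lengths each, over fewer libraries. PHO85 had 37 nt in both S288C replicates and 33 nt in each of the other 9 libraries. It was the only one of the 9 called PHO genes with a call in the control without pyrophosphatase, where 4.48% of all ORFs and 9.08% of those called in Sigma with the enzyme had one, and that call equalled the 33 nt found with the enzyme. Of the 171 ORFs called in both Sigma libraries, 23.4% had the same length in both. Since the control was not treated to open caps, the 33 nt end of PHO85 was seen with and without that step, and the share of uncapped ends cannot be read from lengths.

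PHO4 (YFR034C), for the transcription factor, had the shortest leader of the group. It measured 12 nt in both S288C replicates, 8 nt in Sigma, 20 nt in fraction 1 and 8 nt in each of fractions 2 to 7. In S288C TL-seq 7.63% of ORFs were shorter than PHO4. The 20 nt call in fraction 1 stood above every other library.

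PHO2 (YDL106C), for the partner of Pho4, varied most among the gradient fractions. It had 65 nt in S288C replicate 2, no call in replicate 1 or in Sigma, and 31, 31, 51, 51 and 57 nt in fractions 3 to 7. The S288C call lay above all 5 fractions, and the fractions themselves split into 31 nt on one side and 51 to 57 nt on the other. In fractions 1 and 2 it was not called.

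The genes of phosphate uptake and of the secretory pathway had leaders of ordinary length. PHO84 (YML123C), for the high-affinity transporter, had 40 nt in both S288C replicates and 47 nt in fractions 1, 2, 3, 6 and 7, so every fraction with a call lay above both replicates. An antisense RNA, YNCM0001W, is annotated across the whole of PHO84 (chromosome XIII, 23564 to 26578), and no source used here says whether the calls used strand. PHO86 (YJL117W), for an endoplasmic reticulum protein needed for the export of Pho84, had 71 nt in S288C replicate 1 and 30 nt in fractions 1, 2, 5 and 7. The single TL-seq call was thus 41 nt above 4 equal TATL-seq calls, and without a second replicate it has no error. PHO88 (YBR106W, now SND3), for a membrane protein that helps to bring proteins to the endoplasmic reticulum, had 40 nt in both S288C replicates, 35 nt in Sigma, and 36, 32, 33, 33, 35, 32 and 32 nt in fractions 1 to 7. All 8 calls outside S288C TL-seq were below 40 nt and lay within 4 nt of one another. PHO5 (YBR093C), for the acid phosphatase, had 36 nt in both S288C replicates and 31 nt in fractions 3 and 6.

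Ordered by S288C length, PHO4 (12 nt) came first, followed by PHO5 (36 nt), PHO85 (37 nt), PHO84 and PHO88 (40 nt each) and PHO81 (793 nt). Each of these 6 had the same length in both replicates, as did 76.2% of all 3144 ORFs, and 0 of the 6 were 10 nt or more apart, beside 12.9% of all ORFs. The SD of the replicate difference over all ORFs was 15.4 nt. The median absolute difference was 0 nt, so that SD comes from a minority of ORFs. The 4 genes between 36 and 40 nt differed from each other by less than that SD, although none of them differed between its own replicates. The median of the 6 genes, 38.5 nt, lay close to the 41.5 nt of all ORFs (quartiles 24.5 and 70 nt), so PHO81 was alone among these 6 in its long leader. PHO80, also long, had no S288C call and is not in that median, nor are PHO2, PHO86 and PHO87.

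**Figure D2:**
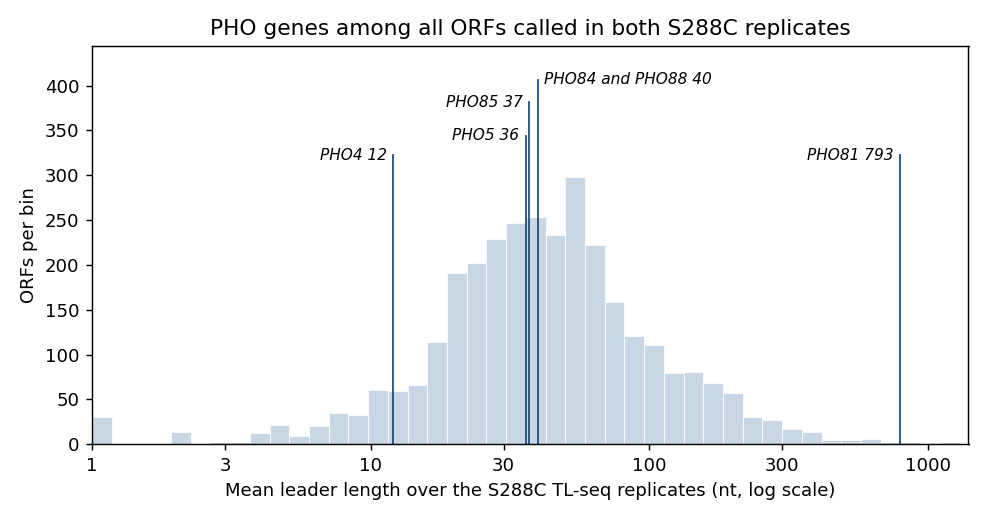
Histogram of the mean leader length over the S288C TL-seq replicates, in nt on a log scale, for the 3144 ORFs called in both; the vertical axis counts ORFs per bin. Vertical lines mark the 6 PHO genes called in both replicates: PHO5, PHO85, PHO84 and PHO88 at 36 to 40 nt sit near the middle, PHO4 at 12 nt in the lower tail and PHO81 at 793 nt in the extreme upper tail.

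The strains were compared gene by gene. A Sigma leader counted as different if it was longer than both S288C replicates, or shorter than both, by 10 nt or more, and if those replicates were at most 10 nt apart. PHO4, PHO85 and PHO88 could be compared, and 0 of the 3 differed, beside 40.9% of 1324 ORFs (13.2% longer and 27.6% shorter in Sigma). Their shifts were nonetheless alike, at −4 nt for PHO4, −4 nt for PHO85 and −5 nt for PHO88. The median difference over 1492 ORFs was −5 nt, and 15.3% of them lay between −5 and −4 nt, a window set to the values of these 3 genes. The lowest length over all ORFs was 1 nt in both S288C replicates and 0 nt in Sigma with pyrophosphatase and in every fraction. It was also 1 nt in the Sigma control, which had only 204 ORF calls. Lengths may not be counted from the same base in all libraries. The part of this in shifts of a few nt from S288C was not tested. With 1 Sigma library, no test of a gene was made.

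The same rule was applied to the median of the TATL-seq fractions against S288C TL-seq, which shares its S288C libraries with the strain comparison. PHO84, PHO5, PHO4, PHO85 and PHO88 could be compared, and 0 of the 5 differed by 10 nt, beside 44.3% of 2261 ORFs (13.0% longer and 31.4% shorter in TATL-seq). PHO4 and PHO85 lay 4 nt below S288C TL-seq (−4 nt each), PHO5 gave −5 nt and PHO88 −7 nt, where the median of 2553 ORFs was −5 nt and 70.2% were below 0. PHO84 went the other way, at +7 nt, and 17.5% of ORFs were longer in TATL-seq by that much or more. Once the median difference of −5 nt was subtracted from every ORF, PHO84 passed the 10 nt rule as longer in TATL-seq, the only PHO gene that did, beside 39.4% of 2261 ORFs that differed in either direction under that setting. PHO2 and PHO86, with 1 S288C replicate each, stood outside the rule, and their TATL-seq medians of 51 and 30 nt gave −14 and −41 nt from that replicate.

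Among libraries of the Genome Analyzer II, the Sigma lengths and the TATL-seq medians were close for every PHO gene called in both. The difference was 0 nt for PHO4 and PHO85 and 2 nt for PHO80 and PHO88, so 0 of 4 reached 10 nt, beside 19.8% of 1789 ORFs. These libraries differ in strain, in the gradient fractionation of TATL-seq and in the way the 3′ end was captured, but share the sequencer.

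**Figure D3:**
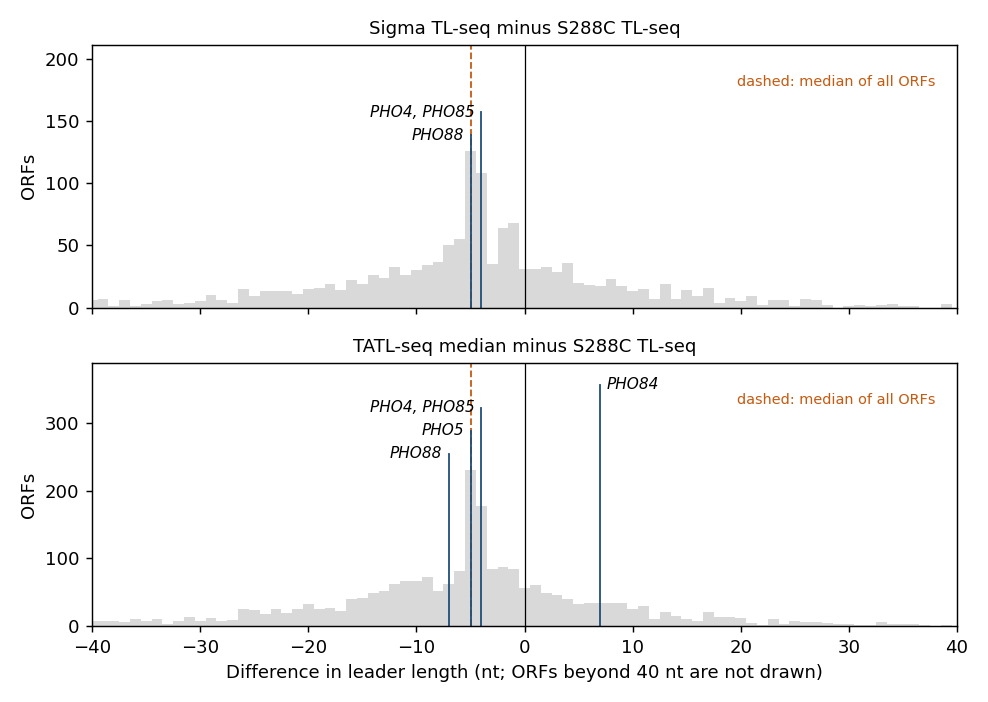
Differences in leader length from the S288C TL-seq mean, in nt, for Sigma TL-seq (upper panel) and the TATL-seq median over fractions (lower panel); grey bars count ORFs per 1 nt, the dashed line is the median of all ORFs and ORFs beyond 40 nt are not drawn. PHO4, PHO85, PHO5 and PHO88 fall at or near the grey peak at −5 and −4 nt, and PHO84, at +7 nt, falls on the other side of 0.

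Over the gradient fractions, mRNAs are spread by the ribosomes they carry, but the order of the fractions, from light to heavy or the reverse, is not in the labels. A range of at least 10 nt was counted among ORFs called in 5 or more fractions. PHO4 and PHO2 reached it out of 5 PHO genes (PHO84, PHO4, PHO85, PHO2 and PHO88), beside 30.9% of 2062 ORFs. The range of 12 nt in PHO4 came from fraction 1 alone, and without that fraction its range was 0 nt. A call in fraction 1 that exceeded the median of the rest by 10 nt or more was found in 6.54% of 1576 ORFs, and among the 4 PHO genes that could be compared in PHO4 only. PHO84 and PHO85 had the same length in every fraction where they were called, as had 32.8% of ORFs, and PHO88 had a range of 4 nt.

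PHO2 had a range of 26 nt and did not shorten from any fraction to the next between fractions 3 and 7. By a count chosen after this pattern was seen, 20 of 1602 ORFs called in fractions 3 to 7 (1.25%) were never shorter than in the fraction before and ended at least 20 nt longer, PHO2 among them. Each length is 1 library, so the steps from 31 to 51 and to 57 nt have no replicate error. PHO80, called in 4 fractions, was not in the count of ranges.

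**Figure D4:**
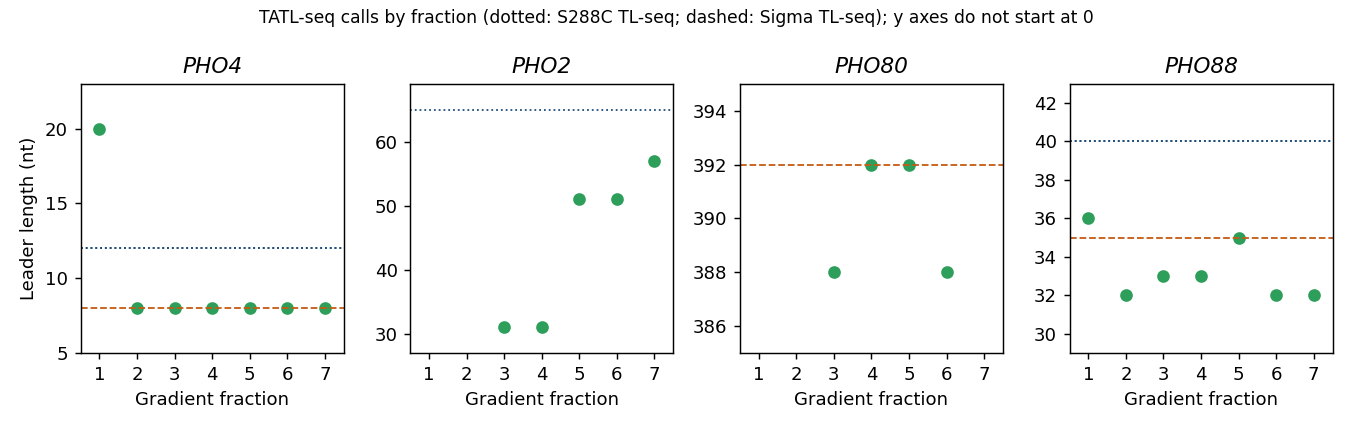
TATL-seq leader length in nt by gradient fraction for PHO4, PHO2, PHO80 and PHO88, each panel with its own vertical axis that does not start at 0; missing points are fractions with no call. Dotted lines mark S288C TL-seq and dashed lines Sigma TL-seq. PHO4 is at 20 nt in fraction 1 and at 8 nt in the others, PHO2 moves from 31 to 57 nt, and PHO80 and PHO88 stay within 4 nt.

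The space upstream of each gene was taken from the RefSeq table of assembly R64, the release that sacCer3 holds. No source used here names the build behind the S288C TL-seq calls. PHO81 (chromosome VII, 954674 to 958210, minus strand) faces the flavohemoglobin gene YHB1 across 1693 bp, and its 793 nt leader covered 46.8% of that gap. Only 0.767% of 3131 ORFs had a leader that filled as large a share, and the median share was 9.87%. PHO80 (chromosome XV, 325249 to 326130, plus strand) faces IZH2 across 884 bp, and its 392 nt covered 44.3%. With the S288C leaders of the neighbours, 21 nt for YHB1 and 8 nt for IZH2, 879 and 484 bp remained between the called starts of each pair. The 484 bp joins a PHO80 length from Sigma and TATL-seq to an IZH2 length from S288C TL-seq. Those sets differ in strain or method and in sequencer. Neither long leader reached the annotated ORF of its neighbour.

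The leaders of the other 7 called PHO genes covered smaller shares of their gaps. By its longest call, PHO5 (chromosome II, 429548 to 430951) covered 3.32% of the 1084 bp to PBY1, PHO88 (chromosome II, 452658 to 453224) 5.81% of 688 bp, PHO85 (chromosome XVI, 492018 to 493037) 7.33% of 505 bp and PHO2 (chromosome IV, 270222 to 271901) 13.3% of 487 bp. The genes in tandem with an upstream ORF had less room. PHO4 (chromosome VI, 225020 to 225958) covered 12.3% of 162 bp, PHO84 (chromosome XIII, 24037 to 25800) 19.8% of 237 bp and PHO86 (chromosome X, 192531 to 193466) 30.6% of 232 bp, while PHO87 (chromosome III, 194414 to 197185) lies 435 bp from BUD5. The longest call came from 1 library for PHO4 (20 nt, fraction 1), PHO2 (65 nt, S288C replicate 2) and PHO86 (71 nt, S288C replicate 1). All their other calls were shorter, so these shares are the largest their calls give. The median share of 9.87% over all ORFs used S288C means instead. In all, 6 of the 10 were divergent from their upstream neighbour, beside 52.1% of 5993 genes, and the median gap was 496 bp beside 448 bp. The leader was longer than the gap in 0.287% of the 3131 ORFs and in none of the PHO genes.

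**Figure D5:**
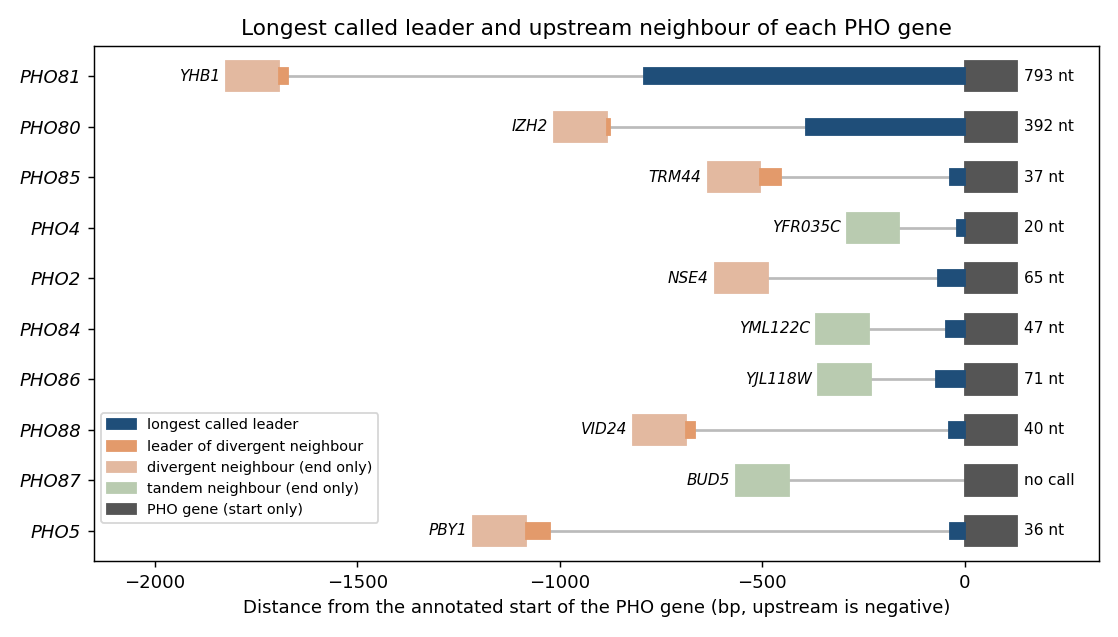
Map of the space upstream of each PHO gene, with distance in bp from its annotated start and upstream negative. Dark blue bars are the longest called leader (in nt at the right), orange bars the leader of a divergent neighbour where both genes were called, and pale boxes the near end of the neighbouring ORF, not its full length. The 793 nt of PHO81 and 392 nt of PHO80 fill 46.8% and 44.3% of their gaps, more than any other PHO gene.

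The same measures were taken for 42 other genes of phosphate handling, listed by function. Of these, 38 had a call, beside 75.6% of the 6021 protein-coding genes. SPL2, VTC5, PHM7 and MSN5 had none. In S288C their median was 44 nt (n = 27), from 15 nt for both PHO3, for the constitutive acid phosphatase, and KCS1, for an inositol hexakisphosphate kinase, to 146.5 nt ± 2.12 (SD, n = 2) for PSE1, the importin that carries Pho4, and 186 nt ± 33.9 (SD, n = 2) for the cyclin gene PCL6. None approached PHO81 or PHO80. By S288C TL-seq alone, the other Pho85 cyclins had the highest median of these groups, 86 nt (n = 6, 72 to 186 nt). Genes of none of these roles had 73.5 nt (n = 4, 44 to 146.5 nt) and phosphatases 41 nt (n = 5). Transporters had 32 nt (n = 4), inositol pyrophosphate genes 26.5 nt (n = 2) and polyphosphate genes 26 nt (n = 6). Some cyclin lengths differed between replicates or from TATL-seq, as given below. PHO11 and PHO12, near-identical acid phosphatase genes, both had 41 nt in each S288C replicate, and no source used here says how reads shared by such copies were assigned.

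Replicates lay 10 nt or more apart for 5 of these 27 genes. PHO90, for a low-affinity transporter, had 51 and 23 nt, PHM6 32 and 56 nt, the polyphosphatase gene PPN1 151 and 123 nt, PCL6 210 and 162 nt and PCL8 84 and 96 nt. The count stands beside 12.9% of all ORFs.

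Against S288C, 6 of 11 differed in Sigma, 3 longer and 3 shorter, beside 40.9% of ORFs. PHO89, for a sodium-coupled phosphate transporter, had 15 nt in Sigma against 70 and 67 nt, PCL2 31 nt against 72 nt and PCL7 61 nt against 76 nt. The vacuolar polyphosphate polymerase gene VTC4 had 30 nt in Sigma against 16 nt, PCL9 111 nt against 96 nt and the mitochondrial phosphate carrier gene MIR1 43 nt against 27 nt. VTC4 stood at 16 or 17 nt in all 7 fractions as well, and PCL9 at 90 nt, so for both the Sigma length stood apart from both other sets. MIR1 in fractions 2 to 6 and PCL2 in every fraction with a call lay within 3 nt of Sigma.

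In TATL-seq, 7 of 17 differed from S288C TL-seq, beside 44.3% of ORFs. The shorter ones were PHO8, for the vacuolar alkaline phosphatase (56 to 35 nt), PHO23 (78 to 27 nt, from 1 fraction), GDE1 (69 to 59 nt), PCL1 (82 to 66 nt) and PCL2 (72 to 34 nt). The longer ones were MIR1 (27 to 43 nt) and VTC1, of the polyphosphate polymerase complex (22.5 to 53 nt). Between Sigma and TATL-seq 5 of 11 differed, beside 19.8%, with Sigma minus TATL-seq at −19 nt for VTC1, 14 nt for VTC4, −24 nt for PCL6, −10 nt for PCL7 and 21 nt for PCL9. In the control only MIR1 of the 38 called genes had a call, at 18 nt, beside 4.48% of all ORFs.

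Over the fractions VTC1, PCL6 and MIR1 reached a range of 10 nt, 3 of 15 beside 30.9% of ORFs. In VTC1, fractions 1 and 3 gave 23 nt, while the other 5 gave 48 to 56 nt. MIR1 had 31 nt in fractions 1 and 7 and 43 nt in between, and PCL6 ranged from 181 to 205 nt.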

How the data were processed

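The deposited files, 1 per library, pair gene names with leader lengths in nt as called by the authors. Per the submitters' processing notes reads were mapped with Bowtie, for 9 libraries to sacCer3. No source used here gives the read minimum, the annotation or the calling rule, so read depth is unknown and no interval from counts can be given. The lengths are not counts, and no count test was made. Names of 57 snoRNAs and tRNAs were left out. Genes were matched by locus tag to the RefSeq table of assembly R64, which matched all 4551 ORF names.

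The 10 genes, the 42 other phosphate genes and the rules were chosen with earlier results of these data known. Results are descriptions, most of them beside the same share over all ORFs, and no gene was tested. Some of these shares were not planned and were shaped to a pattern already seen, such as those given for PHO81, PHO80, PHO84, PHO4 and PHO2. The TATL-seq length is the median over fractions with a call. Text names all 10 genes and, of the others, those that differed in a comparison, the 2 longest and 2 shortest, and those chosen after their values were seen: genes with no call, with differing replicates, and PHO11 and PHO12. The rules were run on simulated lengths with shifts set far above the 10 nt threshold. That run checks the code and says nothing about differences near the threshold. Start triplets and motifs in leaders and promoters were not analysed here, as no genome sequence was used. Python 3.11.15 with pandas 2.3.3 was used.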

Additional observations from a re-analysis of the deposited data

How the results depend on the processing

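Alternatives were other thresholds, a replicate or fraction left out, other minimums of fractions, and subtraction of the median difference. Of 21 values for the PHO genes under these alternatives, 12 equalled the reported value and 2 more, the median lengths below, moved from 38.5 to 40 nt. At 5 nt, 1 gene (PHO88) differed in Sigma and 3 (PHO84, PHO5 and PHO88) in TATL-seq, beside 68.3% and 69.9% of ORFs. Without either S288C replicate, 1 gene differed in TATL-seq, PHO2 without replicate 1 and PHO86 without replicate 2, beside 48.8% and 48.3% of ORFs, because the rule then admits genes called once. With the median difference subtracted, 1 gene (PHO84) differed in TATL-seq, beside 39.4%. The count of wide ranges over fractions was 1 at 20 nt and 1 without fraction 1, PHO2 in both. A share over all ORFs is given only for the 10 nt rule with all fractions (30.9% of 2062 ORFs). These counts therefore have no share beside them and do not mark PHO2 as unusual. The median S288C length was 40 nt without either replicate, because PHO2 or PHO86, called once, then enters the median. For the 42 other phosphate genes, only 4 of 21 values equalled the reported value. At 5 nt, 8 of them differed in Sigma and 11 in TATL-seq. At 20 nt, 2 differed in Sigma and 4 in TATL-seq, beside 20.3% and 21.1% of ORFs. Their median S288C length, 44 nt as reported, was 56 nt without replicate 1 and 53.5 nt without replicate 2. No paired test was possible, because every comparison between groups held a group of only 1 library. Upstream start triplets were not run. Unknown depth limits what a missing call means.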
